A study of Mus musculus with 6 samples.

Results

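Collagen genes are described across 3 RNA sequencing libraries of C2C12, a line of mouse myoblasts labelled as strain C3H. Members were all rows holding a single symbol of the form Col, number, a, number, which gave 42 of the 22989 rows. A further 2 rows that join a collagen symbol to another gene (Col7a1 with Mir711, Col20a1 with Arfgap1) were not members. The starved library came from myoblasts that received the siRNA named siNS and then spent 4 h in HBSS, a salt solution without serum. The knockdown library came from non-starved myoblasts that received siRNA against Foxk1, a forkhead transcription factor. The control library, against which both were set, came from non-starved myoblasts with siNS. Non-starved cells grew in DMEM with 10% serum, so loss of serum and loss of amino acids cannot be told apart in the starved library. Each group had 1 library, so no value has a replicate check, no test was possible and no p-value is given. Genes are compared by the authors' deposited 95% intervals: where the intervals of 2 libraries do not overlap, the gene is called apart between them, which compares libraries and not conditions.

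Collagens are secreted or membrane proteins built from chains with long runs of glycine-led repeats, which wind around each other into a rope-like helix. Fibrillar collagens form the tensile fibrils of connective tissue, basement membrane collagens form sheets around cells, and beaded filament (type VI) collagen forms microfibrils near the cell surface. FACIT collagens sit on the surface of fibrils, network collagens (types VIII and X) form lattices, and multiplexins carry interrupted helices. In muscle, collagens make up much of the matrix around the fibres.

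The promoters of 6 members are shown because these are among the genes that carry the contrasts within types IV, VIII and VI described further on. Col6a2, also in the type VI contrast, is not shown, and its windows held none of the motifs named below. Each line spans 250 bases before to 50 bases after the annotated start, from RefSeq (build GRCm38.p6), 5′ to 3′ on the gene's strand. Capitals mark matches on either strand to the motifs TGTTTAC (forkhead), CAGACA (Smad), TATAAA or CCAAT.
Col4a1, chr8:11312777-11313076, minus strand: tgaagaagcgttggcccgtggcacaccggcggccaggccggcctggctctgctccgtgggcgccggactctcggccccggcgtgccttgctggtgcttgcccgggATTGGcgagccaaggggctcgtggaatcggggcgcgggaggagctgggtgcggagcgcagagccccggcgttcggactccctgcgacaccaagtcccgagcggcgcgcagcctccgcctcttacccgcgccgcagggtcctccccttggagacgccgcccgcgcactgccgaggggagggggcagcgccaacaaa
Col4a2, chr8:11312555-11312854, plus strand: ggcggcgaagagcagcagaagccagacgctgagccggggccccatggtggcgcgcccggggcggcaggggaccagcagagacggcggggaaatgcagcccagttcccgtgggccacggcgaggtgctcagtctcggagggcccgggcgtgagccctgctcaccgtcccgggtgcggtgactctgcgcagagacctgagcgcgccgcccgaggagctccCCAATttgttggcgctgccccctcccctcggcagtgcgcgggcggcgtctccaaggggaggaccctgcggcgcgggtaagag
Col8a2, chr4:126286544-126286843, plus strand: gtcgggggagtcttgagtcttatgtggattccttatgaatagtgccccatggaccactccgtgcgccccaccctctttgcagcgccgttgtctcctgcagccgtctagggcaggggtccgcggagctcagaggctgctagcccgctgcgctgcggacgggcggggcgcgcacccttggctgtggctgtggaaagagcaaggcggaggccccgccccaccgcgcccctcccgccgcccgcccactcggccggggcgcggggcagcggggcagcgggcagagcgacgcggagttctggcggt
Col8a1, chr16:57754688-57754987, minus strand: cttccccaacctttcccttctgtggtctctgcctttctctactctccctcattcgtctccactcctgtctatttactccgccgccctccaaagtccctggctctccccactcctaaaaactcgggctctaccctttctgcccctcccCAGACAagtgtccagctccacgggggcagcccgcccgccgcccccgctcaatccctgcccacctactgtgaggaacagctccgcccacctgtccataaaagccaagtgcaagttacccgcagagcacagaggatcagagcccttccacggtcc
Col6a1, chr10:76725995-76726294, minus strand: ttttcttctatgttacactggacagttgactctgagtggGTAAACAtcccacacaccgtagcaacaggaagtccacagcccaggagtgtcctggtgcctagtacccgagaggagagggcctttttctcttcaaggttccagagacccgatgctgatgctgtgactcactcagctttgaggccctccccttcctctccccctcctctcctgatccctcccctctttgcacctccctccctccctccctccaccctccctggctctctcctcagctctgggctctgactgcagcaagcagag
Col6a3, chr1:90843922-90844221, minus strand: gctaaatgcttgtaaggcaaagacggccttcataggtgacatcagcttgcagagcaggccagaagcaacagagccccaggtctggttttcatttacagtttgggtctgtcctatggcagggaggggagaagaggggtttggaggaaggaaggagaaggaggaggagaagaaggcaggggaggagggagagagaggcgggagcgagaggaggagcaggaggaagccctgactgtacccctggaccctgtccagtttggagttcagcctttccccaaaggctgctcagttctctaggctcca

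The annotated starts of Col4a1 and Col4a2 lie 21 bases apart on opposite strands of chromosome 8, and the windows shown share 78 bases. The Col4a1 window held 37 CG dinucleotides, the Col4a2 window 33 and the Col8a2 window 32, against a median of 7 over 32851 promoter windows. The Col8a1 window held 12, and the Col6a1 and Col6a3 windows held 3 each. Of the 18 expressed collagen genes, 14 were in the promoter table. The forkhead motif was in 1 of the 14, Col6a1, and in 3.65% of all windows. CAGACA was in 5 of the 14, against 21.0% of all windows, TATAAA in 1 of 14, against 13.6%, and CCAAT in 7 of 14, against 37.4%. The collagen counts are of genes with a match in any of their windows, while the percentages are of single windows. These matches describe letters in the windows and say nothing of binding. The deposited Foxk1 and Sin3A regions are in build mm9 and were not joined to these genes.

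Values were FPKM, a fragment count scaled by transcript length and library size. Levels of different genes are therefore set side by side, though whether all genes were measured evenly was not tested. Read depth is unknown. Over collagen genes at 1 FPKM or more, the interval, averaged over both sides, reached a median of 20.9% of the value in the starved library. The median was 19.4% in the knockdown and 18.2% in the control library. Intervals were not always centred on the value. Foxk1 itself was at 16.1 FPKM (13.3 to 18.9) in the starved, 5.15 FPKM (4.29 to 6.02) in the knockdown and 9.09 FPKM (7.76 to 10.4) in the control library, so that the knockdown library was lower apart and the starved library higher apart. The 6 myoblast markers (Myod1, Myf5, Des, Cdh15, Pax7 and Vcam1) all exceeded 1 FPKM in each library. They summed to 597 FPKM in the starved, 729.9 FPKM in the knockdown and 687 FPKM in the control library.

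Of the 42 collagen genes, 18 reached 1 FPKM in at least 1 library, and 17 of them did so in all 3. Summed over the 42, the level was 844.5 FPKM in the starved, 1632 FPKM in the knockdown and 1085 FPKM in the control library. These sums were 0.160%, 0.290% and 0.191% of all FPKM in the starved, knockdown and control libraries. Fibrillar genes made up 63.7% of the collagen sum in the starved, 71.3% in the knockdown and 63.6% in the control library. In bulk RNA, fewer cells of a type and less RNA per cell cannot be told apart.

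**Figure D1:**
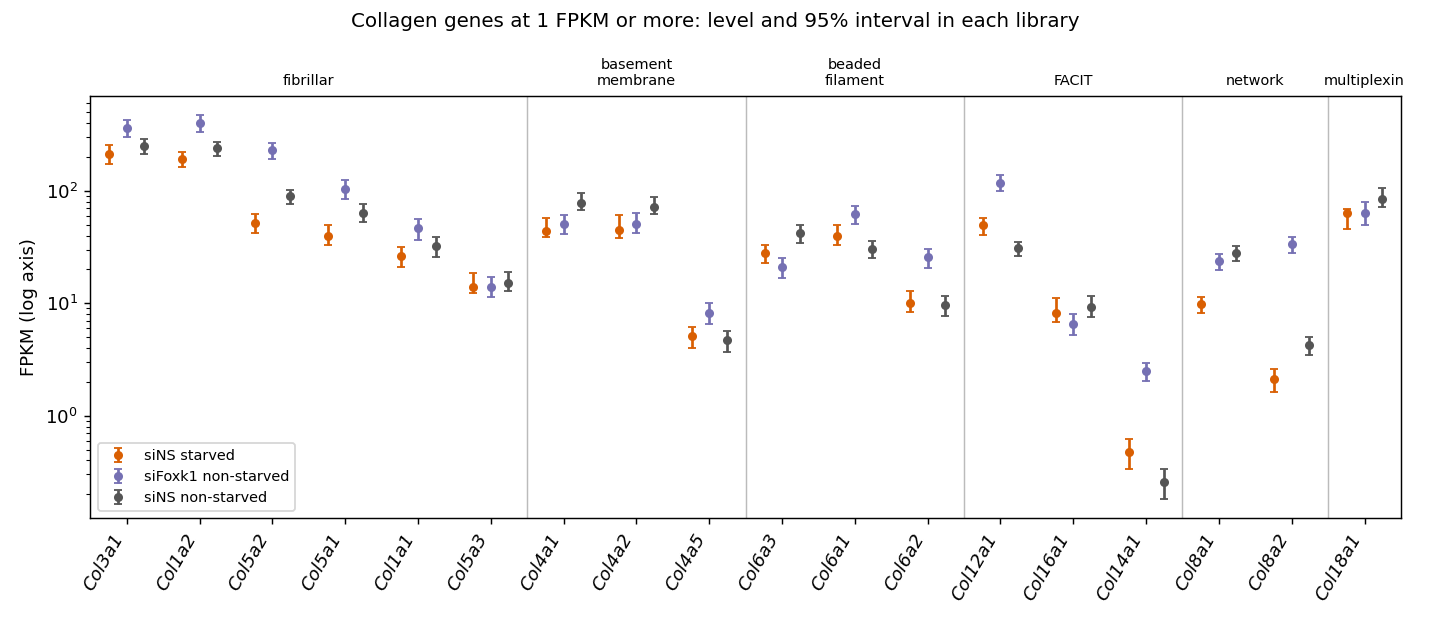
FPKM (log axis) of the 18 collagen genes that reached 1 FPKM in any library, grouped by class. Points are the deposited values of the starved, knockdown and control libraries and bars the authors' 95% intervals. Knockdown points of Col12a1 (118 FPKM), Col14a1 (2.499 FPKM) and Col8a2 (33.7 FPKM) lie above the other 2 libraries, and the starved point of Col8a1 (9.82 FPKM) lies below them.

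In the control library Col3a1 (249.7 FPKM) and Col1a2 (239 FPKM) were the highest collagens, above 98.5% and 98.4% of all rows. Their intervals overlapped each other and lay above that of Col5a2, the next in order. Col5a2, Col18a1, Col4a1, Col4a2 and Col5a1 followed between 89.2 and 63.3 FPKM, each overlapping its neighbour. Col6a3, Col1a1, Col12a1, Col6a1 and Col8a1 formed a lower run between 42.2 and 28.0 FPKM, again with neighbours overlapping. Col5a3 stood apart from its neighbours at 15.3 FPKM. Below it Col6a2 and Col16a1 overlapped at 9.59 and 9.23 FPKM, as did Col4a5 and Col8a2 at 4.67 and 4.23 FPKM. In the knockdown library Col1a2 (404 FPKM) and Col3a1 (364 FPKM) overlapped at the top, Col5a2 (231 FPKM) stood apart as the third, and Col12a1 (118 FPKM) overlapped Col5a1 (104 FPKM) next.

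After starvation, more collagen genes had low than high values. Of the 17 members at 1 FPKM or more in either library, 8 were lower with intervals apart, where 10.9% of all 11396 rows were, and 1 was higher, where 12.2% of all rows were. The median of log2((FPKM + 1) ratio) was -0.32 over these members and -0.01 over all rows. Of the 8, Col8a1 alone was at least 2-fold lower on that scale, as were 3.0% of all rows (2.34% with intervals also apart). None was 2-fold higher, as were 3.12% of all rows (2.81% with intervals also apart). With the libraries rescaled to an equal FPKM sum, 4 of the 8 stayed lower apart: Col8a1, Col8a2, Col5a2 and Col4a1.

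After Foxk1 knockdown, most expressed collagens had high values. Of 18 members, 10 were higher with intervals apart, where 8.89% of all 11357 rows were, and 2 were lower, where 7.13% of all rows were. Col14a1, under 1 FPKM in the other 2 libraries, entered through the knockdown library alone and so had to be higher. Among the 17 members at 1 FPKM or more in all 3 libraries, 9 were higher apart and 2 lower, where 8.31% and 6.75% of the 10740 rows at that level were. The median of log2((FPKM + 1) ratio) was 0.63 over the 18 members and 0.02 over all rows. With the filter at 5 FPKM, which left out Col14a1 alone, it was 0.54 over 17 members. Col8a2, Col12a1, Col14a1, Col5a2 and Col6a2 were at least 2-fold higher on the (FPKM + 1) scale, as were 2.61% of all rows (2.07% with intervals also apart). Col6a1, at 2.03 times the control in plain FPKM, fell just short on that scale. No member was 2-fold lower, as were 1.45% of all rows (1.07% with intervals also apart). Both comparisons use the same control library.

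**Figure D2:**
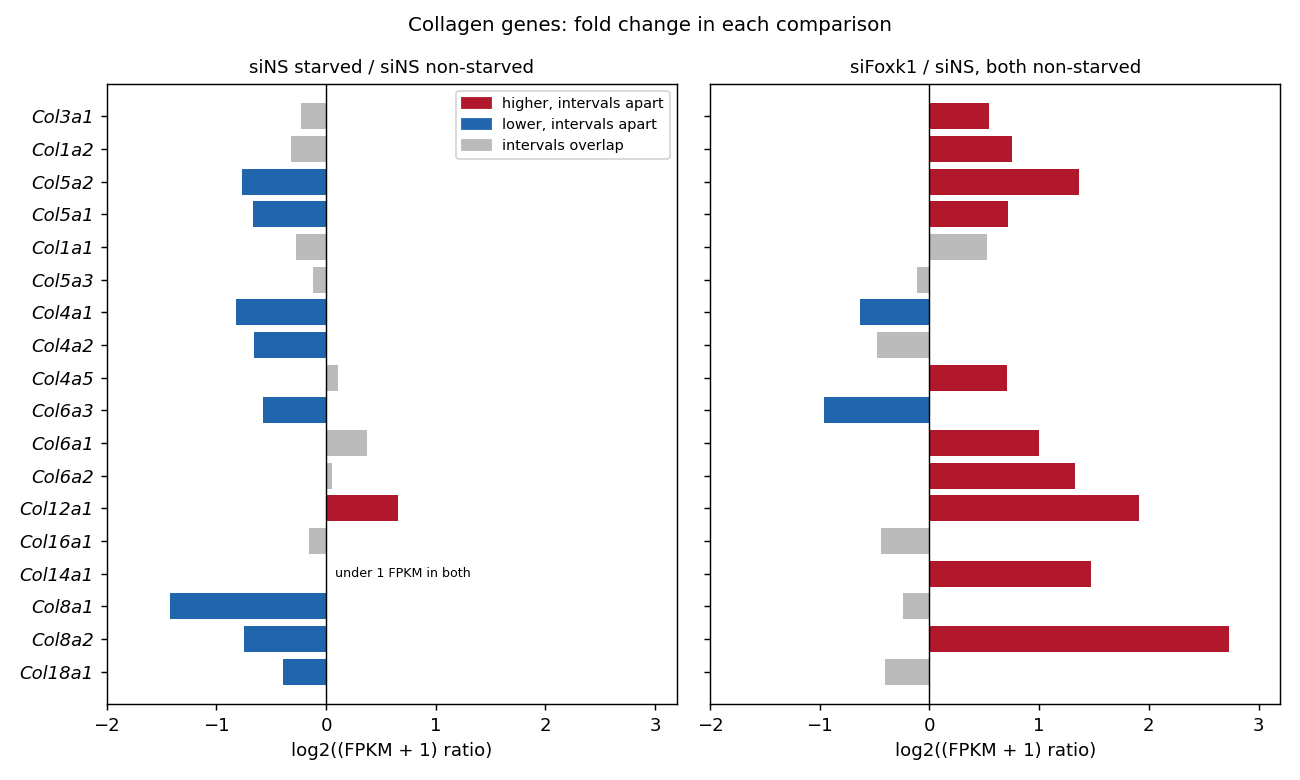
Log2 of the (FPKM + 1) ratio to the control library for the 18 expressed collagen genes, in the starved library (left) and the knockdown library (right). Red and blue bars have intervals apart, higher or lower, and grey bars have overlapping intervals. The starved panel holds 8 blue bars and 1 red bar, and the knockdown panel 10 red bars and 2 blue bars.

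All 6 expressed fibrillar genes had values below the control in the starved library, as did 5843 of all 11396 rows. Intervals were apart for Col5a1 and Col5a2, where 10.9% of all rows were lower apart, and overlapped the control for the other 4. In the knockdown library 4 of the 6 were higher apart, where 8.89% of all rows were. Col1a2, a chain of type I collagen, the main fibril of skin, bone and tendon, was at 192 FPKM (162 to 222) in the starved, 404 FPKM (337 to 469.7) in the knockdown and 239 FPKM (206 to 273) in the control library. The knockdown interval stood clear of the control interval, at 1.69 times the level, while starved and control overlapped. Col1a1, its partner chain, was at 26.4 FPKM (20.9 to 31.5) in the starved, 46.5 FPKM (36.7 to 56.4) in the knockdown and 32.1 FPKM (25.96 to 39.0) in the control library, and both intervals overlapped that of the control. Col1a1 had 0.138 times the level of Col1a2 in the starved, 0.115 times in the knockdown and 0.134 times in the control library, while type I collagen is known to hold more chains from Col1a1.

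Col3a1, which encodes the homotrimeric type III collagen of elastic tissues, was at 213 FPKM (172 to 257) in the starved, 364 FPKM (301 to 426) in the knockdown and 249.7 FPKM (211 to 289) in the control library. Of these, the knockdown interval alone cleared that of the control, at 1.46 times its level. Col5a2 and Col5a1 encode chains of type V collagen, which starts the assembly of type I fibrils. Col5a2 was at 52.1 FPKM (42.6 to 61.7) in the starved, 231 FPKM (193 to 268) in the knockdown and 89.2 FPKM (76.4 to 102) in the control library. The 3 intervals did not overlap, and the starved level was 0.584 times and the knockdown level 2.59 times the control. Col5a1 was at 39.6 FPKM (33.3 to 49.9) in the starved, 104 FPKM (84.5 to 125) in the knockdown and 63.3 FPKM (53.2 to 76.0) in the control library, in the same order and with no overlap. With libraries rescaled to an equal sum, starved and control overlapped for Col5a1. The ratio of Col5a1 to Col5a2 was 0.760 in the starved, 0.453 in the knockdown and 0.710 in the control library. Col5a3, a further type V chain, was at 14.0 FPKM in the starved, 14.1 FPKM in the knockdown and 15.3 FPKM in the control library, with overlapping intervals.

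Among basement membrane genes, Col4a1 and Col4a2 had lower values in both libraries and Col4a5 did not. Col4a1 and Col4a2 encode the chains of the common type IV network and carry the overlapping promoter windows shown above. Col4a1 was at 44.1 FPKM (38.6 to 57.8) in the starved, 50.4 FPKM (41.1 to 61.5) in the knockdown and 78.5 FPKM (67.0 to 95.7) in the control library. Col4a2 was at 45.2 FPKM (38.3 to 60.5) in the starved, 51.2 FPKM (42.4 to 63.5) in the knockdown and 71.8 FPKM (62.1 to 88.9) in the control library. Col4a1 was apart from the control in both libraries. Col4a2 was apart in the starved library, though not with libraries rescaled to an equal sum, and overlapped the control in the knockdown library. Their ratio stayed near parity, 0.976 in the starved, 0.985 in the knockdown and 1.09 in the control library. Col4a5, a chain of the type IV network of kidney and other specialised membranes, was at 5.12 FPKM (3.99 to 6.14) in the starved, 8.27 FPKM (6.55 to 10.0) in the knockdown and 4.67 FPKM (3.72 to 5.68) in the control library. It was higher apart in the knockdown library and overlapped the control in the starved library. The chains it is known to pair with, Col4a3, Col4a4 and Col4a6, were at 0.127 FPKM or less in every library. The basement membrane sum was 94.5 FPKM in the starved, 110.01 FPKM in the knockdown and 155 FPKM in the control library.

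The chains of type VI collagen, which surrounds muscle fibres and is mutated in human congenital muscle diseases, had opposite directions in the knockdown library. Col6a1 was at 39.7 FPKM (33.1 to 49.7) in the starved, 61.8 FPKM (50.6 to 73.6) in the knockdown and 30.5 FPKM (25.3 to 35.6) in the control library. Col6a2 was at 9.96 FPKM (8.33 to 12.9) in the starved, 25.6 FPKM (20.7 to 30.7) in the knockdown and 9.59 FPKM (7.69 to 11.5) in the control library. Both were higher apart in the knockdown library, at 2.03 and 2.67 times the control, and overlapped the control in the starved library. Col6a3, the longest of these chains, was at 28.0 FPKM (22.6 to 33.3) in the starved, 21.1 FPKM (16.9 to 25.5) in the knockdown and 42.2 FPKM (34.7 to 49.996) in the control library. It was lower apart in both, at 0.663 times the control after starvation, where the call was lost with libraries rescaled to an equal sum, and at 0.501 times after knockdown. Col6a3 had 2.81 times the level of Col6a2 in the starved, 0.825 times in the knockdown and 4.40 times in the control library.

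Among FACIT genes, Col12a1 was higher apart in both libraries. Col12a1, which encodes a fibril-surface collagen of tendon and muscle, was at 49.2 FPKM (40.7 to 57.8) in the starved, 118 FPKM (98.9 to 137) in the knockdown and 30.8 FPKM (26.4 to 35.1) in the control library. The 3 intervals did not overlap, and the ratios to the control were 1.60 after starvation and 3.84 after knockdown. It was the 1 member higher apart in the starved library among those at 1 FPKM or more. Col14a1, its close relative, was at 0.475 FPKM (0.337 to 0.615) in the starved, 2.499 FPKM (2.05 to 2.95) in the knockdown and 0.257 FPKM (0.181 to 0.335) in the control library. The knockdown level was 9.73 times the control, and the starved interval, under 1 FPKM, also lay above that of the control. Col16a1, another fibril-associated chain, was at 8.18 FPKM in the starved, 6.53 FPKM in the knockdown and 9.23 FPKM in the control library, with both intervals overlapping that of the control. The FACIT sum was 58.1 FPKM in the starved, 127 FPKM in the knockdown and 40.4 FPKM in the control library. Without Col12a1 it was 0.922 times the control after starvation and 0.956 times after knockdown, so its direction rested on that gene.

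The network genes Col8a1 and Col8a2 encode the chains of type VIII collagen, known from vessel walls and the cornea, and they differed in the knockdown library. Col8a2 was at 2.11 FPKM (1.62 to 2.61) in the starved, 33.7 FPKM (28.3 to 39.2) in the knockdown and 4.23 FPKM (3.49 to 4.96) in the control library. Its starved level was 0.499 times and its knockdown level 7.98 times the control, with all 3 intervals apart. Col8a1 was at 9.82 FPKM (8.19 to 11.4) in the starved, 23.6 FPKM (19.6 to 27.6) in the knockdown and 28.0 FPKM (23.8 to 32.2) in the control library. It was 0.351 times the control in the starved library with intervals apart, while knockdown and control overlapped. Col8a2 stood at 0.215 times the level of Col8a1 in the starved, 1.43 times in the knockdown and 0.151 times in the control library.

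Col18a1, the multiplexin from which endostatin is released, was at 63.9 FPKM (46.1 to 68.3) in the starved, 63.4 FPKM (49.2 to 80.1) in the knockdown and 84.2 FPKM (71.5 to 107) in the control library. It was lower apart in the starved library, a call lost with libraries rescaled to an equal sum, and overlapped the control in the knockdown library. The other multiplexin gene, Col15a1, stayed at 0.0453 FPKM or less.

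**Figure D3:**
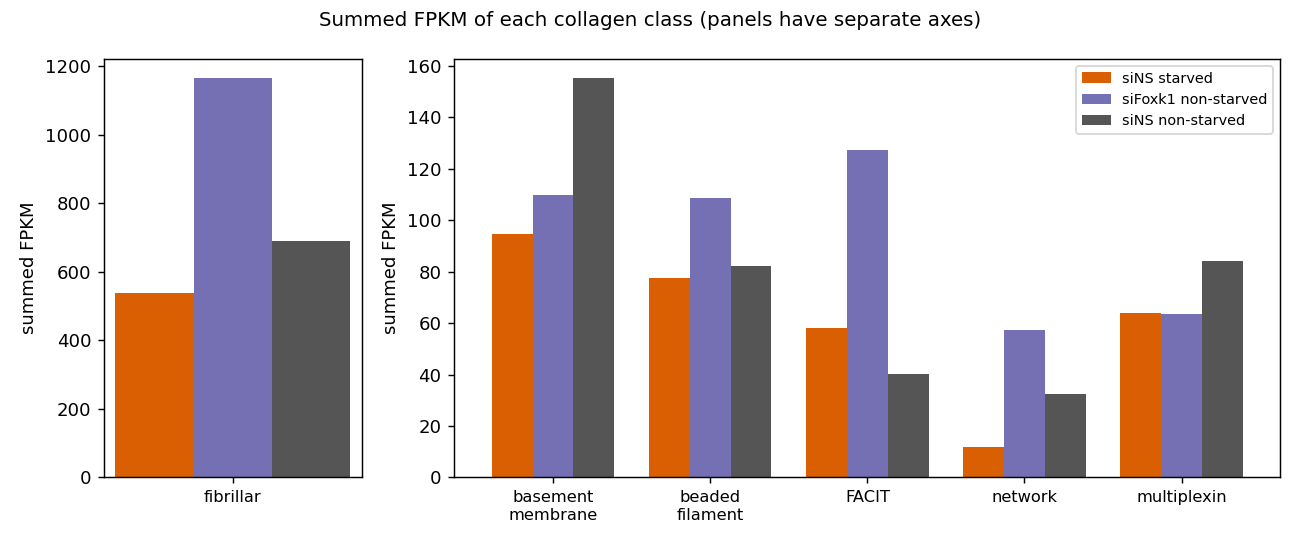
Summed FPKM of the collagen classes with an expressed member in the starved, knockdown and control libraries. Bars carry no error because each group has 1 library. The fibrillar sum (left panel, its own axis) is 538 FPKM in the starved, 1164 FPKM in the knockdown and 689 FPKM in the control library, and the basement membrane and multiplexin sums are highest in the control library.

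Of 8 pairs of collagen genes that neighbour each other in RefSeq, 3 had both genes at 1 FPKM or more. Col6a1 with Col6a2, and Col3a1 with Col5a2, were higher apart as pairs in the knockdown library. Of single genes, 8.89% of all rows and 10 of 18 collagens were higher apart there. Col4a1 with Col4a2 were lower apart as a pair in the starved library as deposited, where 10.9% of all rows and 8 of 17 collagens were. The share over all neighbouring pairs of genes was not computed, so these pairs show no effect of position. In the starved library Col5a2 was lower apart while Col3a1 overlapped the control. Col4a5 was at 8.27 FPKM in the knockdown library beside its neighbour Col4a6 at 0.0924 FPKM.

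The other 24 collagen genes stayed under 1 FPKM in all 3 libraries. Col6a6 and Col9a1 were listed at 0 in each. Col17a1, a hemidesmosome collagen of epithelia, was the highest of the 24 in the starved (0.571 FPKM) and control (0.691 FPKM) libraries. In the knockdown library it was at 0.475 FPKM, below Col27a1, and its intervals in the 3 libraries overlapped. The cartilage collagen gene Col2a1 was at 0.00698 FPKM in the starved, 0.157 FPKM in the knockdown and 0.0464 FPKM in the control library, and the hypertrophic cartilage gene Col10a1 stayed at 0.0884 FPKM or less. In the knockdown library 4 of the 24 had intervals above the control, namely the fibrillar genes Col11a1 and Col27a1, the FACIT gene Col19a1, and Col28a1. Of all 11631 rows under 1 FPKM in both knockdown and control libraries, 1.04% did. Col27a1 was at 0.531 FPKM (0.378 to 0.689) in the knockdown and 0.178 FPKM (0.0952 to 0.262) in the control library. Col11a1 was at 0.264 FPKM (0.183 to 0.347) in the knockdown and 0.0831 FPKM (0.0437 to 0.126) in the control library. In the starved library, where 1.41% of the 11592 rows under 1 FPKM in starved and control had such a value, Col11a2, another fibrillar gene, had an interval above the control, at 0.482 FPKM (0.332 to 0.726), with 0.134 FPKM (0.0568 to 0.215) in the control library. The remaining members under 1 FPKM, also Col13a1, Col22a1, Col23a1, Col24a1, Col25a1, Col26a1, Col6a4, Col6a5, Col9a2 and Col9a3, had intervals that overlapped those of the control.

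Genes that modify, export, trim, cross-link or bind collagen chains were listed by role, and 48 of the 51 listed were found as single rows. In the starved library 7 of 38 expressed genes were lower apart and 1 was higher, against 10.9% and 12.2% of all rows, with a median log2((FPKM + 1) ratio) of -0.23. Rescaled to an equal sum, Sec24d, Lox and Fmod stayed lower apart, while Postn, Leprel1, Adamts14 and Itgb1 overlapped the control. After knockdown 15 of 39 were higher apart and 2 were lower, against 8.89% and 7.13% of all rows, with a median of 0.33. Among the 37 at 1 FPKM or more in all 3 libraries, 6 were lower and 1 higher after starvation, against 10.8% and 11.6% of all rows at that level. After knockdown 13 of the 37 were higher and 2 lower, against 8.31% and 6.75%.

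Among hydroxylation enzymes, 3 of 11 (P4ha3, Leprel1 and Plod2) were higher apart in the knockdown library, where 8.89% of all rows were. The median log2((FPKM + 1) ratio) of the 11 was 0.05 there, and 4 of them had values below the control. P4ha3, a catalytic subunit of prolyl 4-hydroxylase, was at 17.6 FPKM (14.8 to 20.5) in the knockdown and 9.33 FPKM (7.88 to 10.8) in the control library. Leprel1, a prolyl 3-hydroxylase gene, was at 3.32 FPKM (2.59 to 4.05) in the starved, 10.4 FPKM (8.04 to 12.7) in the knockdown and 5.55 FPKM (4.32 to 6.79) in the control library. It was lower apart in the starved library and higher apart in the knockdown library. Lepre1, which encodes another prolyl 3-hydroxylase, was at 10.7 FPKM (8.18 to 13.3) in the starved and 16.3 FPKM (12.6 to 20.1) in the control library, which overlap.

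Of 8 expressed genes of chaperones, glycosylation and export, Creb3l1 and Fkbp14 were higher apart in the knockdown library, where 8.89% of all rows were. Creb3l1, a transcription factor known to activate Col1a1 in mouse osteoblasts, was at 80.3 FPKM (65.2 to 98.0) in the starved, 189 FPKM (158 to 221) in the knockdown and 93.9 FPKM (80.1 to 108) in the control library. The knockdown interval alone stood above the control. Fkbp14, which encodes a prolyl isomerase of the endoplasmic reticulum, was at 18.6 FPKM in the knockdown and 9.50 FPKM in the control library. Sec24d, a coat protein gene of the vesicles that carry procollagen, was lower apart in the starved library, at 35.0 FPKM against 52.5 FPKM in the control. Serpinh1, which encodes the collagen chaperone HSP47, was at 326 FPKM in the starved, 428 FPKM in the knockdown and 441 FPKM in the control library, overlapping the control in both cases.

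Adamts2, which removes the amino-terminal propeptide of fibrillar procollagens, was at 5.04 FPKM (3.90 to 6.12) in the starved, 17.8 FPKM (13.9 to 22.0) in the knockdown and 4.999 FPKM (3.90 to 6.16) in the control library. Its knockdown interval stood above the other 2, which nearly coincided. Adamts14, a related protease gene, was lower apart in the starved library, at 8.67 FPKM against 13.3 FPKM in the control. Pcolce2, an enhancer of carboxy-terminal trimming, was at 42.9 FPKM in the starved, 39.2 FPKM in the knockdown and 55.8 FPKM in the control library, and was lower apart after knockdown alone.

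Cross-linking enzymes differed among themselves. Lox, which encodes lysyl oxidase, was at 98.3 FPKM (76.8 to 121) in the starved, 309 FPKM (256 to 363) in the knockdown and 158 FPKM (133 to 182) in the control library, with all 3 intervals apart. Loxl2, a paralog known to act on type IV collagen, was at 36.0 FPKM (30.3 to 41.6) in the starved, 23.4 FPKM (19.7 to 27.1) in the knockdown and 46.5 FPKM (39.8 to 53.2) in the control library. It was lower apart in the knockdown library, where Lox and Loxl1 were higher apart. Loxl3 was at 10.5 FPKM in the starved and 14.5 FPKM in the control library, with intervals overlapping.

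Of 6 expressed fibril partners, 5 (Bgn, Dcn, Fmod, Fn1 and Sparc) were higher apart in the knockdown library, where 8.89% of all rows were. Fmod, which encodes the fibril-binding proteoglycan fibromodulin, was at 0.643 FPKM (0.442 to 0.834) in the starved, 8.69 FPKM (7.11 to 10.3) in the knockdown and 1.21 FPKM (0.915 to 1.52) in the control library. It entered the starved comparison through the control library alone and so had to be lower there. Dcn, which encodes decorin, was at 10.4 FPKM (8.04 to 12.8) in the starved, 30.0 FPKM (25.1 to 34.9) in the knockdown and 9.64 FPKM (7.95 to 11.3) in the control library, higher apart after knockdown. Postn, the periostin gene, was lower apart in the starved library, at 3.95 FPKM against 5.73 FPKM in the control.

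Among receptors and uptake genes, Itga11, which encodes a fibrillar collagen integrin subunit, was at 0.537 FPKM (0.369 to 0.703) in the starved, 2.68 FPKM (2.15 to 3.22) in the knockdown and 0.412 FPKM (0.294 to 0.530) in the control library. It entered through the knockdown library alone and so had to be higher there. Mrc2, the collagen uptake receptor gene, was higher apart, at 38.1 FPKM (31.6 to 44.6) in the knockdown and 17.7 FPKM (14.9 to 20.5) in the control library. Ddr2, a receptor kinase for fibrillar collagen, was the 1 gene of the list higher apart in the starved library, at 44.1 FPKM (36.2 to 54.6), with 25.7 FPKM (21.5 to 29.8) in the control. Itgb1, the partner subunit of the collagen integrins, was lower apart there, at 156 FPKM against 238 FPKM in the control.

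**Figure D4:**
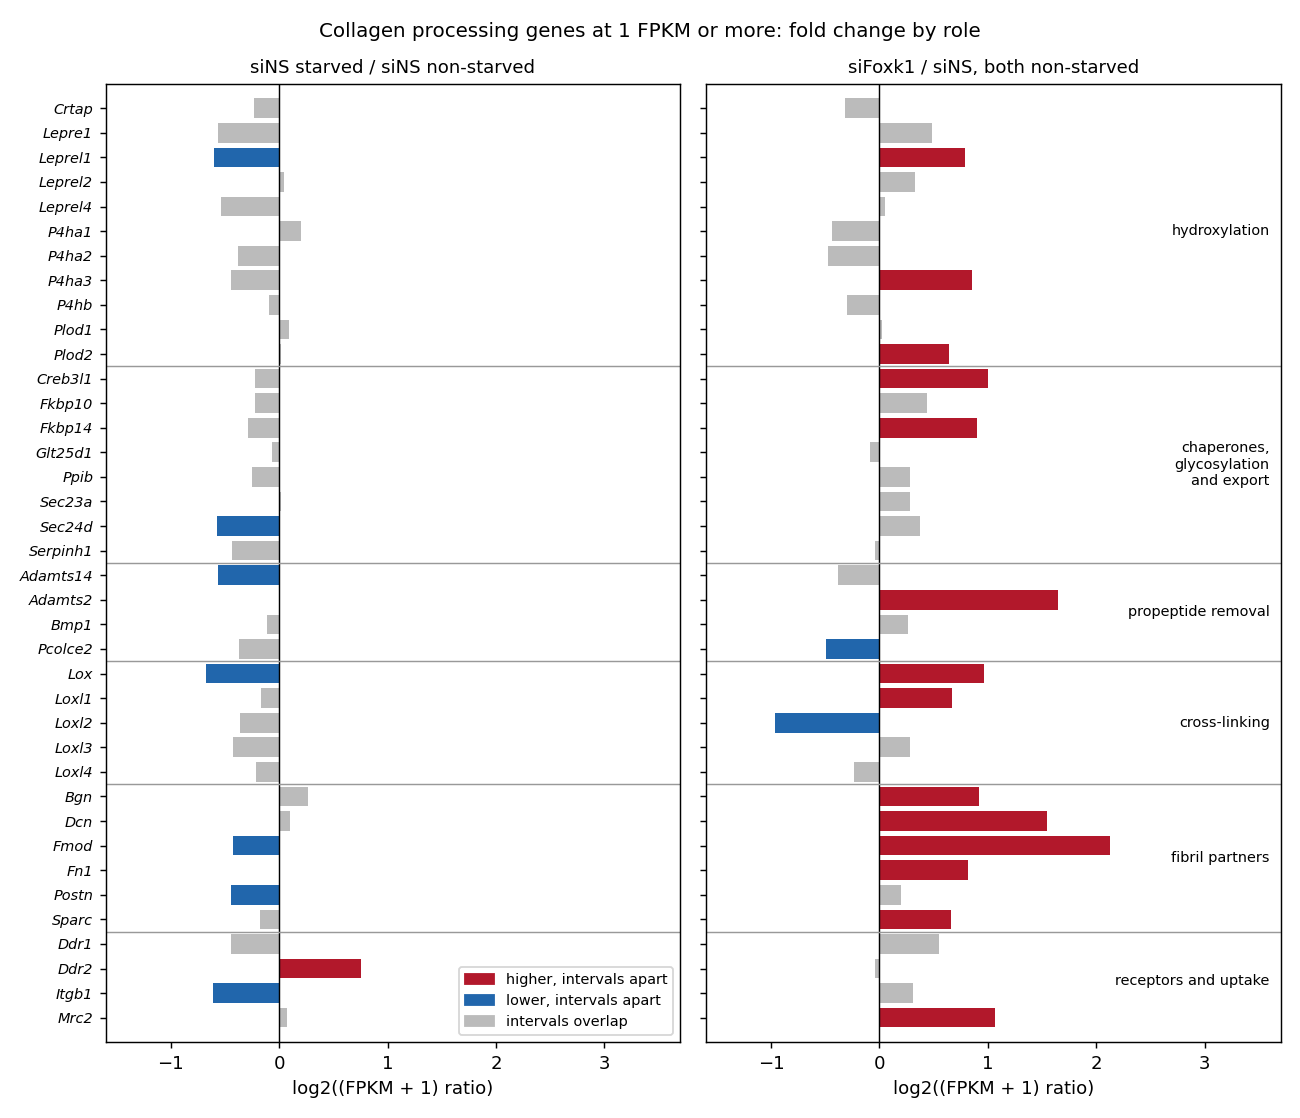
Log2 of the (FPKM + 1) ratio to the control library for collagen processing genes that entered both comparisons, by role, in the starved library (left) and the knockdown library (right). Red and blue bars have intervals apart, higher or lower, and grey bars overlap. Fmod, Adamts2 and Dcn have the longest bars in the knockdown panel, and Ddr2 has the sole red bar in the starved panel.

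Markers of cell states were also set against the control library, and some were apart from it while others overlapped it. All 6 markers of differentiated muscle (Myog, Myh3, Acta1, Ckm, Tnnt1 and Mylpf) were higher apart in the knockdown library, where 8.89% of all rows were. Among them were all 4 at 1 FPKM or more in every library, where 8.31% of rows at that level were. The 6 summed to 26.2 FPKM in the starved, 184 FPKM in the knockdown and 44.0 FPKM in the control library. After starvation, Myog alone of the 5 that entered was lower apart, where 10.9% of all rows were. It was at 6.02 FPKM against 14.2 FPKM in the control. Of the 6 myoblast markers, Myod1 was lower apart in the starved library, at 10.7 FPKM against 70.1 FPKM, where 10.9% of all rows were. Myf5 was higher apart there, at 29.6 FPKM against 16.8 FPKM, where 12.2% of all rows were. The other 4 overlapped the control, as did 8760 of all 11396 rows. All 6 overlapped it after knockdown, as did 9537 of all 11357 rows. The cartilage regulator Sox9 was lower apart after starvation, at 17.6 FPKM against 40.7 FPKM. Of 5 fibroblast markers, Pdgfra and Pi16 reached 1 FPKM, with Pdgfra higher apart after starvation, at 2.63 FPKM against 1.41 FPKM, Tcf21 was at 0 and Thy1 at 0.0128 FPKM or less. The fibroblast list summed to 3.90 FPKM in the starved, 2.06 FPKM in the knockdown and 2.30 FPKM in the control library. The part of these genes in the collagen values was not tested. Of 6 chondrocyte markers Sox9 alone reached 1 FPKM, with Matn1 at 0 and Acan at 0.00238 FPKM or less. Of 6 osteoblast markers Runx2 alone did, at 21.5 FPKM in the starved, 21.9 FPKM in the knockdown and 18.5 FPKM in the control library, with Ibsp at 0. Lpl was the 1 of 4 adipocyte markers at that level, at 4.42 FPKM in the starved, 8.89 FPKM in the knockdown and 4.87 FPKM in the control library and higher apart after knockdown, with Plin1 at 0. Cd68 was the 1 of 4 macrophage markers, at 4.10 FPKM in the starved, 1.26 FPKM in the knockdown and 2.4999 FPKM in the control library, with Emr1 at 0, and the 4 endothelial markers summed to 0.390 FPKM or less.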

How the data were processed

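Polyadenylated RNA was sequenced in 3 libraries, 1 per group, and groups were taken from the sample labels. Per the file headers, the authors deposited for each gene row a mean FPKM and the limits of its 95% interval. Tools named in the submitters' processing notes are Bowtie2 2.1.0, TopHat2 2.0.9, Cufflinks 2.1.1 and Cuffdiff, with mm9 as the build. The annotation, the origin of the intervals and any pooling behind a mean have no statement in the sources used here. No count model could be used, since FPKM keeps no read counts. Zzz3 was dropped, as its knockdown limits were malformed.

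Fold changes are log2((FPKM + 1)/(control FPKM + 1)), a scale that understates changes of low genes, and values given as times are ratios of plain FPKM. A row entered a comparison if either library reached 1 FPKM. Every member at that level is named, and of the processing genes those with intervals apart and a 2-fold difference, or else the 2 with the largest change in a role. Other processing genes named to complete a count, and Serpinh1 after knockdown, were added after their values were seen. Plod3, Mia3 and Pcolce are no single rows and were not used here. Region overlaps and protein sequences had been planned and were not used here. The members and lists were chosen with earlier results of these data known. Counts over members at 1 FPKM or more in all 3 libraries were added after the data were seen. Alternatives covered pseudocount, filter, scaling, call rule and class sums. The calling step was also run on simulated data, with noise drawn from the deposited intervals themselves. That run checks the code and cannot show how libraries of the same group would vary. Promoters and neighbouring genes came from RefSeq (GRCm38.p6), in which all 42 symbols matched. Python 3.11.15, numpy 2.4.6, pandas 2.3.3 and matplotlib 3.10.9 were used.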

Additional observations from a re-analysis of the deposited data

How the results depend on the processing

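No paired analysis was possible because each group has 1 library, and for the same reason no library could be left out. The deposited intervals are the sole measure of error, and the depth behind them is unknown. Calling at 2-fold or more on the (FPKM + 1) scale, with or without intervals apart, gave 0 collagens higher and 1 lower after starvation. After knockdown it gave 5 higher and 0 lower. The same rules gave 0 processing genes higher and 0 lower after starvation, and 6 higher and 0 lower after knockdown. Itga11, among the 6, entered through the knockdown library alone. Of all rows, 3.12% were 2-fold higher and 3.0% lower after starvation, and 2.61% and 1.45% after knockdown. With intervals also apart these shares were 2.81% and 2.34% after starvation, and 2.07% and 1.07% after knockdown. With no filter on low values, 3 of 39 collagens above 0 were higher apart after starvation, where 9.03% of all 17195 such rows were. The collagen medians were then -0.018 after starvation (39 members) and 0.0069 after knockdown (40 members), since members near 0 entered. Scaling to an equal FPKM sum left 4 collagens and 3 processing genes lower apart after starvation. It moved the starved collagen median to -0.22 and that of all rows by 0.10. Under it Col18a1, Col4a2, Col5a1 and Col6a3 lost their starved calls, and Col4a2 lost its call under upper-quartile scaling too. A pseudocount of 5 gave a knockdown median of 0.49. The starved beaded filament sum, 0.944 times the control, was 1.01 times after scaling to an equal sum and 1.24 times without Col6a3. Without Col12a1 the FACIT sums were 0.922 times the control after starvation and 0.956 times after knockdown. The knockdown beaded filament sum was 2.18 times without Col6a3, and the network sum 7.88 times without Col8a1.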
